A study of Mus musculus with 59 samples.

Results

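The CBX and PHC subunits of canonical PRC1 were followed as transcripts in mouse embryonic stem cells (ESCs) and embryoid bodies (EBs). The members were chosen by symbol: *Cbx2*, *Cbx6*, *Cbx7* and *Cbx8* for the CBX proteins, and *Phc1*, *Phc2* and *Phc3* for the PHC proteins. These 7 genes, of 24391 in the deposited tables, were listed in all 59 RNA-seq libraries.

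Polycomb repressive complex 1 (PRC1) is built around RING1A or RING1B, the E3 ligases that place ubiquitin on histone H2A. Canonical PRC1 holds PCGF2 or PCGF4 together with 1 CBX and 1 PHC protein. The chromodomain of the CBX protein reads H3K27me3, the mark made by PRC2, and the PHC protein polymerises through its SAM domain and so compacts and clusters Polycomb-bound chromatin. Variant PRC1 complexes, with PCGF1, PCGF3, PCGF5 or PCGF6, carry RYBP or YAF2 in place of CBX and lack PHC. CBX7 is known as the main CBX protein of undifferentiated ESCs, while CBX2 and CBX8 are known to take a larger part as ESCs differentiate.

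The libraries came from 6 ESC lines, each a single line, and all of them carried ERT2-Cre, so that 4-OHT could switch on recombination. ESCs were grown with LIF, SU5402, PD184352 and CHIR99021 on MEF feeder cells, and EBs were grown for 2 days without these factors on low-attachment dishes. Controls were not given 4-OHT, and mutants were. In the *Pcgf1* line, ERT2-Cre;Pcgf1f/f (4 ESC and 5 EB libraries) was compared with ERT2-Cre;Pcgf1delta/delta (5 ESC and 5 EB libraries). The other lines had 2 libraries in each of their 4 groups. Their genotypes without and with 4-OHT were ERT2-Cre;Ring1apm/pm;Ring1b and ERT2-Cre;Ring1apm/pm;Ring1bpm/pm (the point mutant line), ERT2-Cre;Ring1a-/-;Ring1bf/f and ERT2-Cre;Ring1a-/-;Ring1bdelta/delta, ERT2-Cre;Pcgf2f/f;Pcgf4f/f and the same with both delta/delta, ERT2-Cre;Pcgf3f/f;Pcgf5f/f and the same with both delta/delta, and ERT2-Cre;Pcgf6f/f and ERT2-Cre;Pcgf6delta/delta. The point mutant line thus carried mutant *Ring1a* in its controls as well, and the *Ring1a*-deleted line lacked *Ring1a* in its controls. The sources do not say that replicates were separate cultures, so the p-values measure the spread between these libraries, which may be technical.

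Levels were deposited as TPM (transcript levels that take account of gene length and sum to 1000000 in a library), and the depth of the libraries is unknown. The labelled stage could be checked with *Fgf5*, a gene of the early epiblast. In the *Pcgf1* and point mutant lines *Fgf5* lay between 0 and 0.703 TPM in every ESC library and between 2.91 and 68.5 TPM in every EB library. In the other 4 lines, *Fgf5* was above 2 TPM in 7 of 16 libraries labelled ESC and below 1 TPM in 7 of 16 libraries labelled EB. In 21 of these 32 libraries the file name gave another condition than the label. By file name, *Fgf5* was at 7.53 TPM or more in each of them named EB, and 0.816 TPM or less in each named ESC. *Pcgf1* itself was at 7.30 to 16.6 TPM in the 9 controls of its line and at 0.627 to 2.77 TPM in the 10 mutants. In the *Ring1a*-deleted, *Pcgf2*/*Pcgf4*, *Pcgf3*/*Pcgf5* and *Pcgf6* lines, the ranges of each targeted gene overlapped between libraries labelled control and mutant. Member tests are therefore given for the *Pcgf1* and point mutant lines, and values by library, with a count of calls by label, for the others. A point mutation of *Ring1b* (*Rnf2*) need not change its transcript, so the level of *Rnf2* does not check the labels of the point mutant line. In such bulk samples, fewer cells of a type and less RNA per cell cannot be told apart.

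Within the *Pcgf1* line, the library identifiers in the column headers fall into 3 sets by their first characters. These sets are taken here as series of libraries: replicate 1, replicates 2 and 3, and replicates 4 and 5. *Cbx2*, *Cbx6*, *Cbx7*, *Phc1* and *Phc2* were higher in both replicates 2 and 3 than in every other replicate in each of the 4 groups. For *Cbx2* the mean level of replicates 2 and 3 was 1.88 to 2.55 times that of the others, and for *Phc1* 1.41 to 1.71 times. The mean of *Cbx8* went the other way, at 0.536 to 0.952 times. These differences between series were as large as some of those between conditions, and the values of same-numbered libraries are given as pairs beside the group tests. Replicates 4 and 5 of a group differed by a median absolute log2 difference of 0.0574 to 0.0884 over 8784 genes. Replicates 2 and 3 differed by 0.132 to 0.205, and replicates of different series by 0.249 to 0.681. The 4 or 5 pairs of a comparison thus come from 3 series and are not all independent. A fit with the replicate number as a block is called the fit with pairs. A call is an adjusted p under 0.05 in limma with the Benjamini-Hochberg method over all genes tested, and log2 fold changes are on the log2(TPM + 0.1) scale and are given with their SE.

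*Phc1* and *Cbx7* were by far the most abundant members. Over the 59 libraries, *Phc1* ranged from 123 to 735 TPM with a median of 278, and *Cbx7* from 81.9 to 293 TPM with a median of 158. *Phc1* was the highest of the 7 members in 54 libraries and *Cbx7* in the remaining 5. Measured by mean TPM, 98.1% of all genes lay below *Phc1* and 95.9% below *Cbx7*. *Cbx6* (median 32.6 TPM, range 18 to 75.3) and *Cbx2* (median 20.5, range 7.40 to 74.0) followed. *Phc2* had a median of 16.3 TPM (6.48 to 47.4). *Phc3* (median 5.62 TPM, range 1.55 to 14.2) and *Cbx8* (median 2.31, range 0.207 to 16.4) were the lowest members, and *Cbx8* was the last of the 7 in 41 libraries. The order of *Cbx2*, *Cbx6* and *Phc2* was not fixed, since their ranges overlapped.

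The members are placed on 5 chromosomes in mm9, and 2 pairs of them are neighbours. *Cbx2* (chr11:118884276-118892584, plus strand) and *Cbx8* (chr11:118897619-118902283, minus strand) are 5.04 kb apart. *Cbx6* (chr15:79654326-79665118, minus strand) and *Cbx7* (chr15:79746237-79801549, minus strand) are 81.1 kb apart. *Phc1* (chr6:122267749-122290579, minus strand), *Phc2* (chr4:128331982-128430125, plus strand) and *Phc3* (chr3:30798217-30868337, minus strand) stand alone.

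Polycomb complexes are known to bind CpG islands, so the start sites of the 3 members that the point mutant results turn on are shown here. Each sequence is the 300 bases from 250 before to 50 after a transcript start in the RefSeq table of GRCm38.p6, printed 5′ to 3′ on the gene's strand, and each was found once in mm9, at the position given. Capitals mark CpG dinucleotides.
*Cbx8* (chr11:118902178-118902477, minus strand): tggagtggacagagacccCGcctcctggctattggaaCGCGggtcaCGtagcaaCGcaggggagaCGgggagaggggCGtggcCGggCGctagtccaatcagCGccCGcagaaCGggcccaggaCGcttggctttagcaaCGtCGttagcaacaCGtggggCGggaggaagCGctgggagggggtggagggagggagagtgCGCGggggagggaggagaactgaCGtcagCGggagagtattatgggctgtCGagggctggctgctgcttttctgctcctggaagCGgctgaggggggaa
*Phc2*, the most CpG-rich of its 3 starts in the table (chr4:128404565-128404864, plus strand): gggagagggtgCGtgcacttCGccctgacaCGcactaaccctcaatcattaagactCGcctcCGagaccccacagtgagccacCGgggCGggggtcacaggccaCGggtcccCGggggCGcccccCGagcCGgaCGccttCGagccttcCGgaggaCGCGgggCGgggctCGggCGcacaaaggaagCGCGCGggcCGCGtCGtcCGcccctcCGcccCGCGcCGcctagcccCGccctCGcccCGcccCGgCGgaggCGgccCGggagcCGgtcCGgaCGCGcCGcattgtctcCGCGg
*Phc1* (chr6:122290196-122290495, minus strand): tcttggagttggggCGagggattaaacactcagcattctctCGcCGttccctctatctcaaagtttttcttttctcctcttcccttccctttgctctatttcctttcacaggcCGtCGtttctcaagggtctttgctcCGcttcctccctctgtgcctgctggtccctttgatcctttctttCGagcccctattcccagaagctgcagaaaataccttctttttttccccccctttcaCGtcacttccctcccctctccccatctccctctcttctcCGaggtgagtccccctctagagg
The window of *Cbx8* held 24 CpG, a number reached by 19.98% of the 32851 promoters of the table. That of *Phc2* held 45 (reached by 1.933%), while the other starts of *Phc2* held 19 and 2. The window of *Phc1* held 9 (reached by 45.78%), the lowest number among the members apart from the CpG-poor start of *Phc2*. *Cbx7* (33) and *Cbx6* (31) held more than *Cbx8*, *Phc3* (15) held fewer, and *Cbx2* was not matched. Whether the number of CpG goes with the changes of the members was not tested. Gene-level TPM does not separate the starts of *Phc2*.

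The first comparison asked how the members differed between ESCs and EBs. In controls of the *Pcgf1* line, *Cbx2*, *Cbx6* and *Phc1* rose in EBs by 1.21, 1.00 and 0.89 on the log2 scale, so that 3 of 7 members were called, all higher, where 24.9% of all 20594 genes were called (11.5% higher and 13.4% lower). With pairs, 5 of 7 were called, where 43.9% of all genes were. The median log2 fold change of the members was 0.34, and that of all genes -0.0045.

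Of the CBX genes, *Cbx2* was at 11.9, 23.9, 24.7 and 14.1 TPM in the ESCs (replicates 1 to 4) and at 27.7, 70.2, 74.0, 27.4 and 29.6 TPM in control EBs (replicates 1 to 5). Every EB library lay above every ESC library, by a log2 fold change of 1.21 ± 0.39 (adjusted p = 0.0302, limma). *Cbx6* stood at 18, 32.5, 32 and 20.8 TPM in ESCs and at 35.4, 75.3, 68.5, 39.8 and 43.8 TPM in EBs, again with no overlap, and the log2 fold change was 1.00 ± 0.29 (adjusted p = 0.0156, limma). Groups without overlap and with EBs higher were found for 10.1% of all genes. Within the 3 series of libraries, the difference was 1.22, 1.56 and 1.01 for *Cbx2* and 0.97, 1.15 and 1.00 for *Cbx6* on the log2 scale. Both genes were thus higher in EBs in each series. The call of *Cbx2* was lost without control ESC replicate 1 or 4 or control EB replicate 2 or 3 (adjusted p = 0.0799 to 0.0962, limma), and that of *Cbx6* without control ESC replicate 1 (adjusted p = 0.0578, limma).

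*Cbx7* spanned 93.9 to 252 TPM before and 130 to 272 TPM after EB formation, and these ranges overlapped widely. The log2 fold change was 0.34 ± 0.34 (adjusted p = 0.520, limma), and with pairs it was called at 0.35 ± 0.11 (adjusted p = 0.0221, limma). *Cbx8* spanned 0.914 to 2.5 TPM and 0.207 to 2.05 TPM and was called in neither fit (log2 fold change -0.80, adjusted p = 0.326, limma).

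Of the PHC genes, *Phc1* was at 208, 384, 405 and 278 TPM in control ESCs and at 387, 735, 684, 560 and 559 TPM in control EBs. The groups overlapped only through replicate 1 of the EBs, which lay below replicate 3 of the ESCs, and within pairs *Phc1* was higher in EBs in 4 of 4. The log2 fold change was 0.89 ± 0.28 (adjusted p = 0.0255, limma), and the call was lost without control ESC replicate 1 or 4 or control EB replicate 2 or 3 (adjusted p = 0.0581 to 0.0960, limma). *Phc3* was lower in EBs in 4 of 4 pairs, at 2.40 to 7.29 TPM against 5.72 to 14.2 TPM in ESCs. It was not called without pairs (log2 fold change -0.93 ± 0.37, adjusted p = 0.0784, limma) and was called with them (-0.99 ± 0.20, adjusted p = 0.0011, limma). It was also called without control ESC replicate 1 (adjusted p = 0.0387, limma) and without mutant EB replicate 1 (adjusted p = 0.0287, limma). *Phc2* was higher in EBs in the first 2 series (log2 differences 0.54 and 0.72) and lower in the third (-0.33), and it was called in neither fit.

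**Figure D1:**
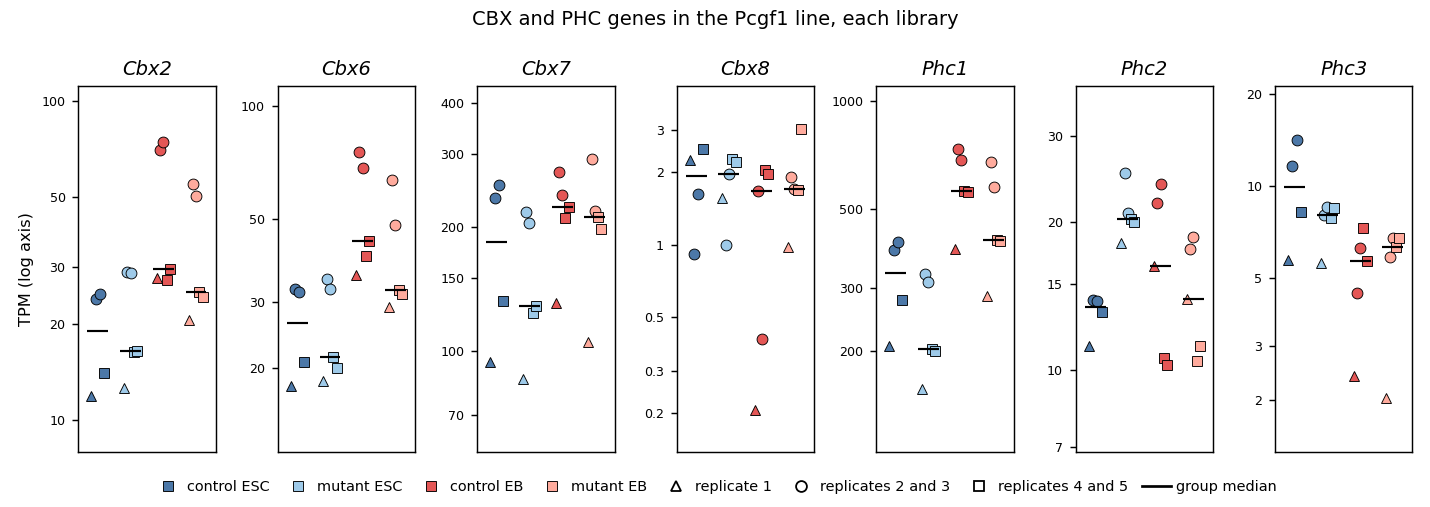
TPM (log axis) of the 7 members in the *Pcgf1* line. Each point is a library (triangle, replicate 1; circle, replicates 2 and 3; square, replicates 4 and 5) and the bar is the median of the group. *Cbx2* and *Cbx6* are higher in every control EB library than in every control ESC library, and *Phc2* is higher in every mutant ESC library than in every control ESC library.

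In the *Pcgf1* mutant, *Phc1* rose in EBs as well, by 0.96 ± 0.27 on the log2 scale (adjusted p = 0.0153, limma), from 157, 329, 312, 203 and 201 TPM in ESCs to 286, 677, 576, 409 and 407 TPM in EBs. It was higher in 5 of 5 pairs. *Phc1* was the only call among the 7 members, where 18.3% of all genes were called. With pairs 6 of 7 were called, where 36.8% of all genes were: *Cbx2* (0.72), *Cbx6* (0.67), *Cbx7* (0.44) and *Phc1* (0.96) were higher, *Phc2* (-0.57) and *Phc3* (-0.57) were lower, and *Cbx8* was the exception.

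Controls of the point mutant line gave a narrower picture, with *Phc1* as the only call of 7, where 4.73% of 20279 genes were called. *Phc1* was at 282 and 217 TPM in control ESCs and at 479 and 525 TPM in control EBs, and so rose by 1.02 ± 0.17 on the log2 scale (adjusted p = 0.0186, limma). This call was lost without any 1 of the 8 libraries of the line (0.83 to 1.21 on the log2 scale, adjusted p = 0.0674 to 0.159, limma). *Cbx7*, at 125 and 123 TPM before EB formation and at 147 and 209 TPM after it, did not overlap but was not called (log2 fold change 0.50, adjusted p = 0.241, limma). *Phc2* was lower in both EB libraries, at 9.69 and 9.52 TPM against 13.5 and 15.9 TPM (log2 fold change -0.60, adjusted p = 0.110, limma). With 2 libraries a group, 23.3% of all genes were higher and 22.7% lower in EBs without overlap. *Cbx2* and *Cbx6* overlapped between the stages in this line, at 18.2 to 27.7 against 19.3 to 23.8 TPM and at 27.8 to 29.6 against 28.5 to 30.02 TPM. The difference between the lines was not tested.

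Markers of feeder fibroblasts moved with the stage in the *Pcgf1* line. The summed TPM of 10 such markers was 225 to 318 in its control ESCs and 27.8 to 54.8 in its control EBs, and 169 to 249 and 9.20 to 17.7 in the mutant. Of the 10 markers, 6 fell and 2 (*Dcn* and *Thy1*) rose in control EBs, while *Lum* stayed at 0.273 TPM or less. Of 8 naive ESC genes all 8 fell, and of 6 formative genes 5 rose. In controls of the point mutant line the sum of the 10 fibroblast markers was 39.54 to 43.48 in ESCs and 32.26 to 37.65 in EBs. There 0 of the 10 were called by limma, and 3 had an unadjusted p under 0.05. The part of the fibroblasts in the stage differences of the members was not tested.

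The second comparison asked how loss of *Pcgf1*, a subunit of variant PRC1 only, touched the canonical subunits. Without pairs, 0 of 7 members were called in ESCs (0.641% of all genes were called, and 1 member had an unadjusted p under 0.05) and 0 of 7 in EBs (1.95% of all genes, with no member at an unadjusted p under 0.05). With pairs, 2 were called in ESCs and 3 in EBs, where 5.31% and 10.4% of all genes were called. For the difference between the effects at the 2 stages, 0 of 7 were called without pairs, where 0.00486% of all genes were, and 1 (*Phc2*) had an unadjusted p under 0.05.

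*Phc2* was the member that stood apart in ESCs. It was at 11.2, 13.9, 13.8 and 13.1 TPM in control ESCs and at 18.1, 25.3, 20.9, 20.3 and 20 TPM in mutant ESCs. Every mutant library lay above every control library, as for 2.1% of all genes, and the difference within series was 0.69, 0.72 and 0.61 on the log2 scale. It was 0.68 ± 0.24 without pairs (adjusted p = 0.332, limma) and 0.76 ± 0.17 with pairs (adjusted p = 0.0178, limma). In EBs *Phc2* did not keep this order, with 10.2 to 23.9 TPM in controls and 10.4 to 18.7 TPM in mutants, and it was lower in the mutant in 4 of 5 pairs. The difference between the effect in EBs and that in ESCs was -0.83 without pairs (adjusted p = 0.742, limma) and -0.91 with pairs (adjusted p = 0.0608, limma), so it was not called.

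*Phc1* was lower in the mutant in 4 of 4 ESC pairs and 5 of 5 EB pairs, but by less than the spread between series. In ESCs its levels, listed above for the stages, gave a log2 fold change of -0.41 without pairs (adjusted p = 0.796, limma) and -0.38 ± 0.07 with pairs (adjusted p = 0.0063, limma). In EBs the values were -0.34 without pairs (adjusted p = 0.726, limma) and -0.34 ± 0.06 with them (adjusted p = 0.0035, limma). *Phc3* was called in neither stage.

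*Cbx2* and *Cbx6* were called with pairs in EBs. *Cbx2* was at 20.5, 54.6, 50.2, 25.1 and 24.3 TPM in mutant EBs and *Cbx6* at 29.2, 63.3, 48.1, 32.4 and 31.6 TPM, and each was below its control partner in 5 of 5 pairs. The log2 fold change was -0.35 for *Cbx2* (adjusted p = 0.834 without pairs and 0.0258 with pairs, limma). That of *Cbx6* was -0.36 (adjusted p = 0.719 without pairs and 0.0032 with pairs, limma). In ESCs, where *Cbx2* was at 12.6, 28.9, 28.7, 16.2 and 16.4 TPM and *Cbx6* at 18.5 to 34.5 TPM in the mutant, neither was called in either fit. The effect of the mutation on *Cbx2* differed between the stages by -0.49 without pairs (adjusted p = 0.986, limma) and by -0.58 ± 0.14 with pairs (adjusted p = 0.0498, limma), the only member so called, where 1.62% of all genes were. For *Cbx6* this difference was -0.40 with pairs (adjusted p = 0.0552, limma).

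*Cbx7* and *Cbx8* were called in neither stage. *Cbx7* lay at 85.2 to 217 TPM in mutant ESCs and 105 to 293 TPM in mutant EBs. *Cbx8* lay at 0.996 to 2.28 TPM in mutant ESCs and 0.982 to 3.04 TPM in mutant EBs, with a log2 fold change of 0.84 ± 0.51 in EBs (adjusted p = 0.618, limma).

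Markers also differed between *Pcgf1* mutant and control. In EBs without pairs, 2 of 8 naive ESC genes (*Nr0b1* and *Tfcp2l1*) and 2 of 4 primitive endoderm genes (*Gata4* and *Gata6*) rose in the mutant, and 1 of 10 fibroblast markers (*Thy1*) fell. With pairs, the fit that called *Phc1*, *Cbx2* and *Cbx6* in EBs, 6 of the 8 naive genes and 3 of the 4 endoderm genes were called higher. In the same fit 3 of the 10 fibroblast markers (*Dcn*, *Fbln2* and *Thy1*) and 2 of the 6 formative genes (*Dnmt3b* and *Pou3f1*) were called lower. The summed fibroblast markers, given above, were lower in every mutant EB library than in every control EB library. In ESCs, *Otx2* of the 6 formative genes fell in both fits, *Dnmt3b* was called higher with pairs, and 0 of the 10 fibroblast markers were called by limma in either fit or had an unadjusted p under 0.05. Their part in the values of the members was not tested.

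**Figure D2:**
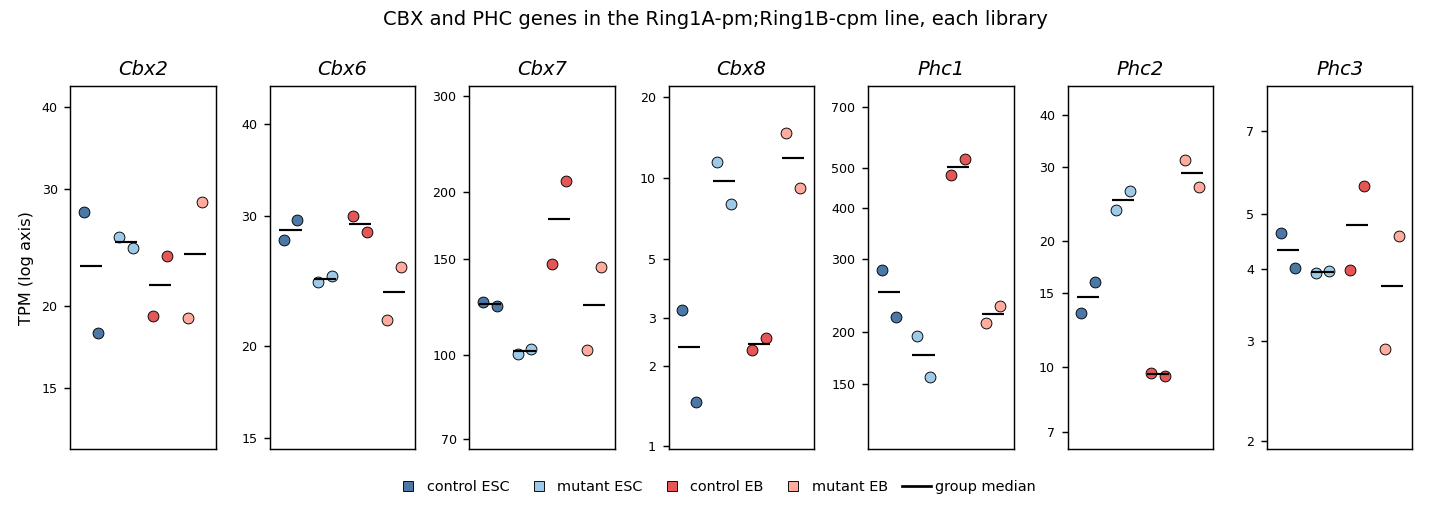
TPM (log axis) of the 7 members in the point mutant line, with a point for each library and a bar at the median of the group. *Cbx8* and *Phc2* are higher, and *Cbx6*, *Cbx7* and *Phc1* lower, in both mutant libraries than in both control libraries at each stage.

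The third comparison used the point mutant line, in which 4-OHT left RING1A and RING1B both with the point mutation. Here the members moved apart in EBs: *Cbx8* and *Phc2* rose and *Phc1* fell. These were 3 calls of 7, where 4.53% of all genes were called (3.76% higher and 0.764% lower). In ESCs 0 of 7 were called by limma, where 2.54% of all genes were, and 3 members (*Cbx8*, *Phc2* and *Phc1*) had an unadjusted p under 0.05.

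*Cbx8*, a reader of H3K27me3 that is low in ESCs, was at 3.21 and 1.46 TPM in control ESCs and at 11.4 and 8.0 TPM in mutant ESCs. In EBs it was at 2.29 and 2.54 TPM in controls and at 14.6 and 9.16 TPM in mutants. At both stages both mutant libraries lay above both controls. The log2 fold change was 2.22 ± 0.43 in EBs (adjusted p = 0.0354, limma) and 2.09 ± 0.43 in ESCs (adjusted p = 0.0536, limma). With the EB libraries alone the adjusted p in EBs was 0.0619 (limma), and the call was lost without any 1 of the 8 libraries (1.88 to 2.55 on the log2 scale, adjusted p = 0.0521 to 0.189, limma).

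*Phc2* was at 13.5 and 15.9 TPM in control ESCs and at 23.7 and 26.3 TPM in mutant ESCs, and at 9.69 and 9.52 TPM in control EBs and 31.3 and 26.9 TPM in mutant EBs. It rose by 1.58 ± 0.18 on the log2 scale in EBs (adjusted p = 0.0110, limma), and the value in ESCs was 0.77 ± 0.18 (adjusted p = 0.0722, limma). Without any 1 library the value in EBs stayed at 1.47 to 1.69, and the call was kept without either control ESC library or mutant EB replicate 2 and lost without any of the other 5 (adjusted p = 0.0579 to 0.0760, limma). *Phc2* was lower in EBs than in ESCs in the controls and higher in EBs in the mutant. That difference between the stages was 0.82 ± 0.25 on the log2 scale and was not called (adjusted p = 0.650, limma), as for each of the 7 members, where 0.00986% of all genes were called and *Phc1* and *Phc2* had an unadjusted p under 0.05.

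*Phc1* was at 195 and 156 TPM in mutant ESCs and at 210 and 232 TPM in mutant EBs, below both controls at each stage. It fell by 1.19 on the log2 scale in EBs (SE 0.17, adjusted p = 0.0151, limma), while the value in ESCs was -0.50 ± 0.17 (adjusted p = 0.171, limma). Without any 1 library the value in EBs stayed at -1.26 to -1.11, and the call was kept without either control ESC library and lost without any of the other 6 (adjusted p = 0.0675 to 0.108, limma). The level of *Phc1* in mutant EBs was close to that in control ESCs, and EBs against ESCs of the mutant gave 0.34 (adjusted p = 0.548, limma), with 0 of 7 members called by limma, no member at an unadjusted p under 0.05 and 0.133% of all genes called. The difference of the effects was -0.68 ± 0.24 and was not called (adjusted p = 0.750, limma).

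*Cbx7* and *Cbx6* were lower in the mutant without overlap at both stages but were not called. *Cbx7* was at 100 and 103 TPM in mutant ESCs and at 102 and 145 TPM in mutant EBs (log2 fold change in EBs -0.53, adjusted p = 0.212, limma). *Cbx6* was at 24.4 and 24.9 TPM in mutant ESCs and at 21.7 and 25.6 TPM in mutant EBs (-0.31 in EBs, adjusted p = 0.301, limma). Lower levels without overlap were found for 12.9% of all genes in ESCs and 13.6% in EBs, and higher levels for 32.5% and 30.1%. *Cbx2* and *Phc3* were at 19.2 to 28.7 and 2.90 to 4.57 TPM in the mutant libraries and were not called.

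The scaling of TPM bears on these sizes. As deposited, the median log2 fold change of all genes was 0.12 in ESCs and 0.10 in EBs of the point mutant. After scaling by the median of ratios, which set this median to 0, the values in EBs were 2.09 for *Cbx8*, 1.45 for *Phc2* and -1.32 for *Phc1*, and all 3 calls were kept. Over all genes the split of higher against lower calls in EBs moved from 763 and 155 to 634 and 295.

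Markers of other cells and of the stage moved with the mutation in this line. The summed TPM of the 10 fibroblast markers was 39.5 to 43.5 in control and 69.9 to 75.5 in mutant ESCs, and 32.3 to 37.7 in control and 80.4 to 81.2 in mutant EBs. In EBs 5 of the 10 rose (*Col1a1*, *Col1a2*, *Col6a1*, *Thy1* and *Twist2*). The sum of 4 primitive endoderm markers was 3.79 to 4.63 and 21.8 to 22.3 TPM in control and mutant ESCs, and 12.1 to 16.3 and 27.5 to 30.4 TPM in control and mutant EBs. Of the 6 formative epiblast genes, 3 fell in EBs (*Fgf5*, *Otx2* and *Pou3f1*) and 1 rose (*T*). *Fgf5* was at 22.7 to 44.0 TPM in the EBs of controls and 2.91 to 3.06 TPM in those of mutants. Of the 8 naive ESC genes, 2 rose in EBs (*Klf4* and *Tbx3*) and the other 6 were not called. *Klf4* was at 37.2 to 65.1 TPM in control and 104 to 122 TPM in mutant EBs. In ESCs 0 of the 6 formative genes were called in limma, where 3 had an unadjusted p under 0.05, and 1 of the 8 naive genes (*Klf2*) fell. Their part in the differences of *Cbx8*, *Phc2* and *Phc1* was not tested.

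**Figure D3:**
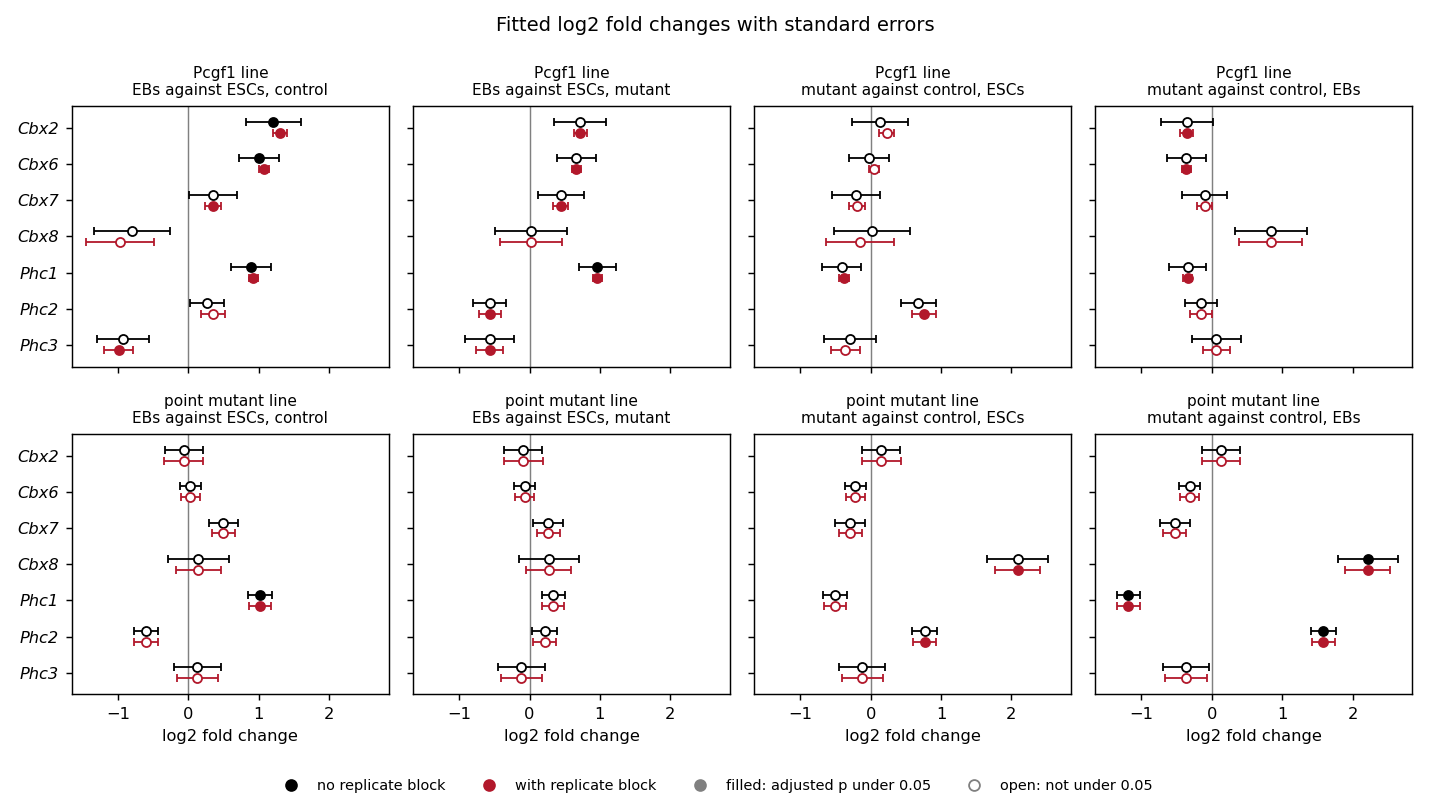
Log2 fold changes of the 7 members (x axis, log2(TPM + 0.1) scale) with their SE in the *Pcgf1* and point mutant lines, for mutant against control and for EBs against ESCs. Black, group means alone; red, with the replicate number as a block; filled points have an adjusted p under 0.05. *Cbx8* and *Phc2* lie to the right and *Phc1* to the left for mutant against control EBs in the point mutant line.

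The make-up of the pools followed from these levels. Shares are percentages of the summed TPM of the 4 CBX members or of the 3 PHC members in a library, are described without a test, and are shares of transcripts, not of protein. In control ESCs of the *Pcgf1* line *Cbx7* made up 74.5 to 81.2% of the CBX sum, and in control EBs 62.6 to 75.2%, while *Cbx2* made up 8.0 to 9.4% and 9.8 to 19.4%, and *Cbx6* 10.3 to 14.3% and 14.2 to 18.3%. *Cbx8* was at 1.8% or less in these controls. In the point mutant line *Cbx8* held 0.8 to 1.7% of the CBX sum in control ESCs and 5.0 to 7.1% in mutant ESCs, and 1.0 to 1.2% and 4.4 to 9.3% in EBs, so that *Cbx8* stayed a minor part of the pool after its rise.

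*Phc1* was the bulk of the PHC sum in each group of these 2 lines. In the *Pcgf1* line its share was 92.5 to 93.7% in control ESCs, 86.9 to 91.4% in mutant ESCs, 95.4 to 97.2% in control EBs and 94.7 to 96.6% in mutant EBs. The share of *Phc2* was 3.2 to 5.0% in control ESCs and 6.1 to 10.03% in mutant ESCs, with no overlap. In the point mutant line *Phc2* held 4.5 to 6.7% in control and 10.6 to 14.1% in mutant ESCs, and 1.8 to 2.0% in control and 10.2 to 12.8% in mutant EBs.

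**Figure D4:**
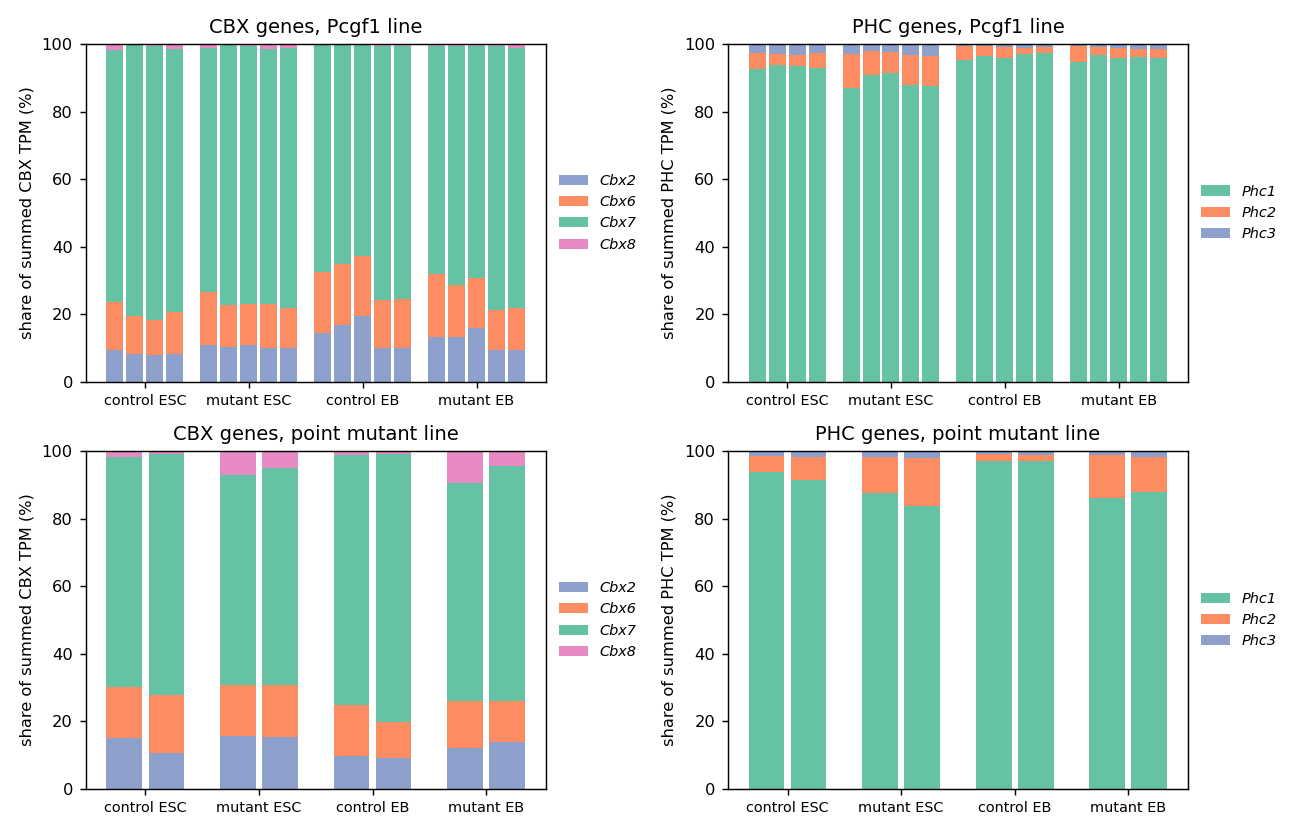
Share of each member in the summed TPM of the CBX members (*Cbx2*, *Cbx6*, *Cbx7*, *Cbx8*) and of the PHC members (*Phc1*, *Phc2*, *Phc3*), in percent, with a stacked bar for each library of the *Pcgf1* and point mutant lines. *Cbx7* and *Phc1* fill most of each bar, and the shares of *Cbx8* and *Phc2* are larger in the mutants of the point mutant line.

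Other Polycomb genes, and HP1 genes outside Polycomb, were counted in 4 lists. These were 6 other canonical PRC1 genes, 14 variant PRC1 genes, 11 PRC2 genes and the 3 HP1 genes *Cbx1*, *Cbx3* and *Cbx5*. The first list held *Ring1* and *Rnf2*, whose proteins are part of variant PRC1 as well. For mutant against control EBs of the point mutant line, where *Cbx8* and *Phc2* rose and *Phc1* fell, 0 genes of each list were called by limma, and 1, 3, 1 and 1 of them had an unadjusted p under 0.05. In ESCs of that line *E2f6*, of the variant PRC1 genes, was the only call in these lists (1.00 on the log2 scale). HP1 proteins carry a chromodomain too but read H3K9 methylation.

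With the stage, in controls of the *Pcgf1* line, 1 of 6 other canonical PRC1 genes (*Rnf2*, -0.64 on the log2 scale) fell. Of 14 variant PRC1 genes 3 rose (*Kdm2b* 1.01, *Yaf2* 0.86 and *Pcgf6* 0.66) and 1 fell (*Pcgf5*, -0.88). Of 11 PRC2 genes 5 fell (*Phf1* -0.93, *Mtf2* -0.91, *Suz12* -0.83, *Eed* -0.78 and *Aebp2* -0.59) and none rose, with a median of -0.59. With pairs, the counts were 0 higher and 2 lower of the canonical, 7 and 3 of the variant, 1 and 6 of the PRC2 and 2 and 0 of the HP1 genes. *Cbx2*, *Cbx6* and *Phc1* thus moved the other way from these PRC2 genes, which encode core subunits (*Suz12*, *Eed*) and accessory ones. For mutant against control in the *Pcgf1* line, *Pcgf1* itself was the only call in these 4 lists (-3.23 in ESCs and -2.84 in EBs). With pairs, *Bcor* and *Bcorl1*, whose proteins join PCGF1 in its complex, were called higher as well, at 0.65 and 1.14 in ESCs and 0.67 and 1.11 in EBs. Of the other variant PRC1 genes, *Mga* was called lower in ESCs (-0.67), and in EBs *L3mbtl2* was called higher (0.61) and *Auts2* (-0.50) and *E2f6* (-0.45) lower. Of the 11 PRC2 genes 3 were called higher in EBs (*Phf19* 0.93, *Jarid2* 0.66 and *Eed* 0.23) and 0 in ESCs. No gene of the other canonical PRC1 or HP1 lists was called at either stage, where 1 and 0 in ESCs and 4 and 0 in EBs had an unadjusted p under 0.05 in limma.

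In the 4 lines whose labels and file names differ, the members are given by library and by label, with *Fgf5* beside them. In the *Pcgf3*/*Pcgf5* line *Phc1* was at 146 and 141 TPM in control ESCs (replicates 1 and 2), 145 and 523 in mutant ESCs, 486 and 513 in control EBs and 470 and 142 in mutant EBs. *Phc2* was at 22.7 and 15.8, 15.2 and 6.48, 8.04 and 8.99, and 8.24 and 21.4 TPM, listed likewise. *Cbx8* was at 2.99 and 2.51, 2.57 and 1.29, 0.996 and 1.11, and 1.01 and 2.21 TPM. *Fgf5* was at 0.125 and 0.0388, 0.0734 and 7.53, 12 and 18.5, and 16.1 and 0 TPM, so that the replicates of both mutant groups stood apart in the members as in *Fgf5*. By label, 0 of 28 calls (7 members in 4 contrasts) were made by limma, where 0.0326% of all tests were called and 3 members (*Cbx7*, *Cbx8* and *Phc1*, control EBs against ESCs) had an unadjusted p under 0.05. Without the 5 libraries whose file names differ, 1 control ESC library, 1 control EB library and 1 mutant EB library were left, and control EBs against ESCs gave a log2 difference of 1.79 for *Phc1* and -0.96 for *Phc2*, with no replicate check.

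In the *Pcgf2*/*Pcgf4* line replicate 2 of each labelled group had *Fgf5* at 33.9 TPM or more and replicate 1 at 0.319 TPM or less. *Phc1* was at 292 to 412 TPM in the former and 163 to 187 TPM in the latter, and *Phc2* at 13.2 to 14.3 and 24.4 to 26.7 TPM. *Cbx8* was at 0.938 to 3.73 TPM in libraries labelled ESC and 4.81 to 8.81 TPM in those labelled EB. By file name, the former were all control and the latter all mutant, each with both low and high *Fgf5*. By label 0 of 28 calls were made by limma, where 0% of all tests were called and 2 comparisons of *Cbx8* had an unadjusted p under 0.05.

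In the *Pcgf6* line replicate 2 again had the high *Fgf5* (18.6 TPM or more, against 0.0813 or less). *Phc2* was at 11 to 13.6 TPM in libraries labelled ESC and 25.9 to 28.8 TPM in those labelled EB among these, and at 21.6 to 24.4 and 37.3 to 37.4 TPM among the replicates 1. In this line too, all libraries labelled ESC were control by file name and all labelled EB were mutant. *Phc1* reached 360 and 421 TPM in the replicates 2 labelled EB, and was at 144 to 196 TPM in the other 6 libraries. Here too 0 of 28 calls were made by label in limma, where 0% of all tests were called, and no member had an unadjusted p under 0.05.

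The *Ring1a*-deleted line had the highest *Cbx8* and *Phc2* of the series. *Cbx8* was at 2.93 and 2.98 TPM in libraries labelled control ESC, 8.54 and 6.99 in mutant ESC, 11.5 and 13.8 in control EB, and 16.4 and 15.4 in mutant EB. *Phc2* was at 14 in both, 11.9 and 9.13, 44.5 and 46.2, and 47.4 and 45.9 TPM, listed likewise, and *Phc1* at 236 and 243, 407 and 395, 123 and 127, and 214 and 218 TPM. *Fgf5* was high in the libraries labelled mutant (8.71 to 28 TPM) and at 0.465 to 0.816 TPM in those labelled control. By file name, the libraries labelled ESC were all control. Those labelled EB were all mutant by file name, and they had low *Phc1* with high *Phc2* and *Cbx8*. Their summed fibroblast markers were also higher, at 448 to 479 TPM in controls and 88.3 to 88.7 TPM in mutants, against 183 to 184 and 31.4 to 32.4 TPM in those labelled ESC, and their part was not tested. By label 22 of 28 calls were made, where 45.5% of all tests were called. Replicates of a group differed little here, and since 4 of the 8 file names give another condition, no direction is read from the labels.

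**Figure D5:**
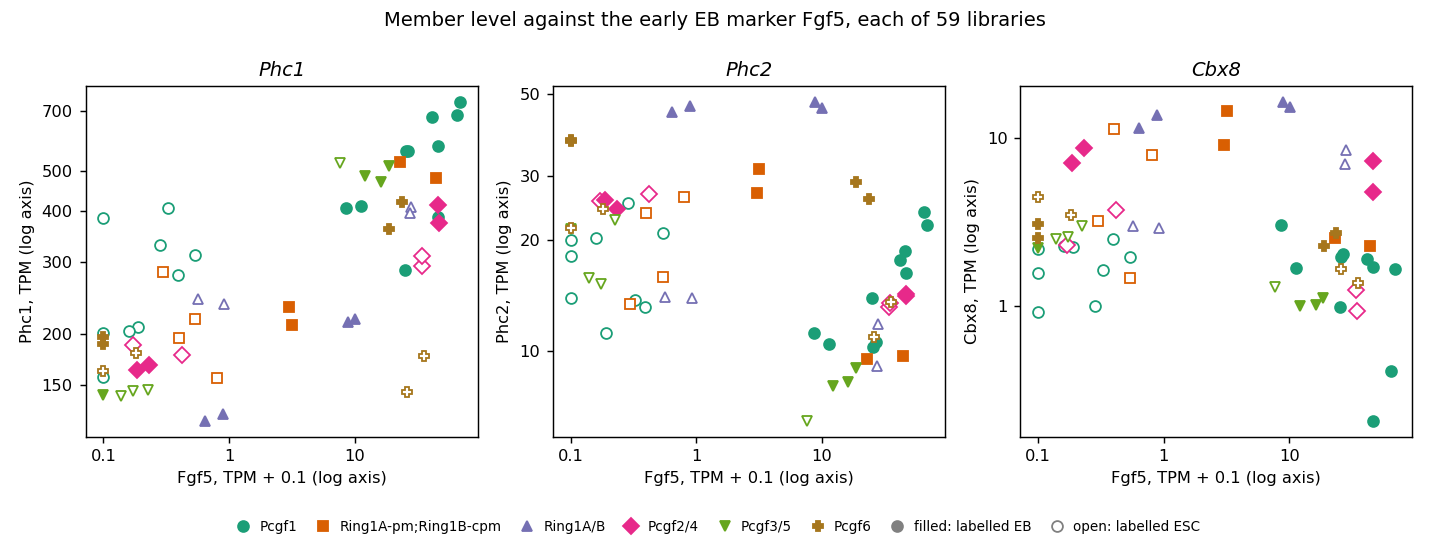
TPM of *Phc1*, *Phc2* and *Cbx8* (y axes, log) against *Fgf5* (TPM + 0.1, log x axis) in the 59 libraries of 6 lines. Filled points are libraries labelled EB. Libraries labelled EB lie at both ends of the *Fgf5* axis, and *Phc1* spans 123 to 735 TPM, *Phc2* 6.48 to 47.4 TPM and *Cbx8* 0.207 to 16.4 TPM.

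Genes with a pattern like that of each member were ranked by Pearson's r of log2 levels over the 59 libraries, centred within lines, among 13724 genes. These are descriptions, since libraries of a series share conditions and processing. *Cbx8* was matched by *Tfap2a* (r = 0.72) and *Cdkn2c* (0.69), less closely than the other members by theirs. *Phc1* was matched by *Zfp652* (0.93), *Chd9* (0.92) and *Tfdp2* (0.92), *Phc2* by *Sgpp1* (0.88), *Phldb2* (0.87) and *Arhgef26* (0.87), and *Phc3* by *Tmem245* (0.89), *Rbl2* (0.88) and *Zgrf1* (0.88). *Cbx7* was matched by *Adgrl1* (0.95), *Unk* (0.91) and *Mllt4* (0.90), *Cbx6* by *Lrfn4* (0.94), *Sox12* (0.93) and *Flywch1* (0.92), and *Cbx2* by *Ttll12* (0.90), *Limk1* (0.90) and *Acaca* (0.89).

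Among the members themselves, *Cbx7* and *Phc1* were the most alike pair (r = 0.82), followed by *Cbx6* and *Cbx7* (0.79) and *Cbx6* and *Phc1* (0.76). *Phc1* and *Phc2* ran opposite to each other (r = -0.50), as did *Cbx7* and *Phc2* (-0.45), and *Cbx8* went with *Phc2* (0.46). Of the neighbouring genes, *Cbx2* and *Cbx8* were at r = 0.17.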

How the data were processed

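RNA-seq libraries were grouped by their sample labels. Per the submitters' processing notes, the authors aligned reads with STAR (version 2.5.2b) to mm9, and they deposited TPM per gene symbol, each library summing to 1000000. The step to TPM is not given in the sources used here. Read depth is therefore unknown, and no counting interval is given. A *Pcgf1* mutant EB library is replicate 4 by title and 5 by characteristics, and the title was used. No values were identical between libraries in 1711 pairs.

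Levels were fitted on the log2(TPM + 0.1) scale by limma (version 3.58.1, variance trend, under R 4.3.3), each line apart and over its 4 groups. Genes at 0 TPM throughout a line were left out, and p-values were adjusted by Benjamini-Hochberg, with calls at 0.05. The script was tested on simulated data. Pairing by replicate number was checked in the *Pcgf1* line: deviations of same-numbered libraries from their group means correlated at r = 0.32 to 0.65 in each pair, over 13400 genes. Since same-numbered libraries are of the same series, this r cannot tell pairing by number from a shared series. Alternatives were a pseudocount of 1, a minimum mean TPM of 1, scaling by the median of ratios, the compared groups alone, replicate or series blocks (the series block chosen after seeing the data), and leaving out libraries. Members and gene lists were chosen with earlier results of these data known. All members are named, and other genes where called in their list, or as among the 3 most alike. A gene withheld from the lists is not reported here. Sequences came from RefSeq (GRCm38.p6), with positions matched in mm9.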

Additional observations from a re-analysis of the deposited data

Results flagged for a closer look

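In the *Pcgf1* line, replicate 1 was far below the other libraries for *Phc3* in both mutant groups. It was at 5.6 TPM in mutant ESCs, where the others were at 7.88 to 8.57 TPM, and at 2.02 TPM in mutant EBs, where the others were at 5.87 to 6.76 TPM. Replicate 1 was also the lowest for *Phc3* in both control groups, at 5.72 TPM in ESCs and 2.40 TPM in EBs. In all, 28 sets of 4 or 5 libraries (7 members in 4 groups) were examined by Dixon's criterion, by which chance picks out about 1 in 20. Replicate 1 is the only library of its series in each group, and the part of the series was not tested.

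The effect of the mutation on *Cbx2* in the *Pcgf1* line differed between the stages in the fit with pairs, by -0.58 on the log2 scale (adjusted p = 0.0498, limma). *Cbx2* was higher in the mutant in 4 of 4 ESC pairs and lower in 5 of 5 EB pairs, and the difference without pairs was -0.49 (adjusted p = 0.986, limma). *Cbx6* was lower in 5 of 5 EB pairs (by -0.51 to -0.25) and higher in 4 of 4 ESC pairs, but by 0.03 to 0.09 only. Within the series of replicates 4 and 5, with the unpaired mutant ESC replicate 5, the ESC difference of *Cbx6* was -0.0075. The difference of its effects was -0.34 without pairs (adjusted p = 0.986, limma) and -0.40 with them (adjusted p = 0.0552, limma).

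In the point mutant line *Phc2* was lower in EBs than in ESCs in both control pairs and higher in both mutant pairs. The difference was 0.82 on the log2 scale and did not pass the test (adjusted p = 0.650, limma).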

How the results depend on the processing

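In the *Pcgf1* line the fit with the replicate number as a block moved the counts of members called most. With the replicate block, with the block and median-of-ratios scaling together, and with the library series as block, 2 of 7 were called for mutant against control ESCs (0 without), 3 for mutant against control EBs (0), 5 for control EBs against ESCs (3) and 6 for mutant EBs against ESCs (1). For the difference of the effects these fits called 1, 1 and 2 (0 without). Of all genes the replicate block called 5.31%, 10.4%, 43.9% and 36.8%, listed likewise, and 1.62% for the difference of the effects. For the other 2 fits no counts over all genes are given here. For mutant EBs against ESCs, scaling alone gave 2 calls, where 2078 of 20594 genes were called higher and 2166 lower. For control EBs against ESCs it gave 4 calls (3 higher and 1 lower), where 2796 genes were called higher and 2799 lower. Leaving out replicates 2 and 3 gave 4 for mutant EBs against ESCs, with no count over all genes given here. Leaving out 1 library gave 1 to 4 calls for control EBs against ESCs and 1 to 1 for mutant EBs against ESCs, and 0 to 0 for mutant against control ESCs, for mutant against control EBs and for the difference of the effects.

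In the point mutant line same-numbered libraries share only a number, with 2 pairs and r = 0.26 to 0.38. For mutant against control ESCs the replicate block gave 2 calls (*Cbx8* and *Phc2*, both higher), where 1188 of 20279 genes were called higher and 138 lower. The fit in the report gave 0, where 475 genes were called higher and 40 lower. The block with scaling gave 2 (*Cbx8* higher and *Phc1* lower) and a minimum mean TPM of 1 gave 1, with no count over all genes given here. Leaving out 1 library gave 0 to 2 calls for mutant against control EBs (3 with all), 0 to 0 for control EBs against ESCs (1 with all), and 0 to 0 for the other 3 comparisons of the line. For mutant against control EBs the block with scaling gave 4 calls, with *Cbx7* lower as the added one. The block alone gave 3, where 1666 of 20279 genes were called higher and 390 lower. Neither changed the count of members called in the other 3 comparisons. For the gene lists in EBs, the block alone added *Bmi1* and *Pcgf5* (higher) and *Cbx1* (lower), and the counts became 4 higher and 1 lower (*Nr0b1*) of 8 naive and 1 higher and 4 lower of 6 formative genes.

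By label, the *Pcgf3*/*Pcgf5* line gave 5 calls, against 0, with the compared groups alone, and also 5 with the numbers crossed in pairs, which was added since r was -0.16 and -0.79 between same-numbered EBs and ESCs. Counts over all genes are not given for either of these fits, so these 5 calls are not read as a result about the members. The *Ring1a*-deleted line gave 20 to 22 of 28 calls without 1 library, and the *Pcgf2*/*Pcgf4*, *Pcgf3*/*Pcgf5* and *Pcgf6* lines 0 to 0. Without the libraries whose names differ from the label, groups of both kinds were left in the *Pcgf3*/*Pcgf5* line alone, with no test. No member changed direction under any alternative run for a called value. A pseudocount of 1 and the mean TPM minimum kept the side of the threshold for each of the 21 member values followed. None of these 21 was from mutant against control ESCs of the point mutant line, where this minimum gave the 1 call named above. The causes of these changes were not tested, and the unknown depth limits the reading of *Cbx8* and *Phc3*, the lowest members.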
